A study of Mus musculus with 19 samples.

Results

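The 40 genes described here encode the steps of glycolysis from glucose uptake to lactate export, the oxygen-sensing machinery built around the hypoxia-inducible factors (HIFs), and genes that these factors are known to switch on. They were taken by name from a fixed list, which was chosen with earlier results of these data known. Shares set beside those of all genes therefore describe the set and are not independent support. Each gene was followed through its transcript with the most reads over the 16 RNA libraries. The 40 genes are 40 of 22878 gene symbols in the tables. All 40 were found. RNA was sequenced from mouse T helper 2 (Th2) cultures, the CD4 T cells that secrete interleukins 4, 5 and 13, in an experiment on Bcl11b and an experiment on Gata3, the transcription factor that directs Th2 differentiation. The Bcl11b experiment compared late KO, late WT, early KO and early WT cultures, all of naive CD4 T cells from Bcl11bfl/fl-CreERT2 mice, in which loxP sites flank Bcl11b and 4-hydroxytamoxifen (4-OHT) switches on the recombinase CreERT2. Early cultures were kept in Th2 conditions for 4 days. Late cultures had 4 days of Th2 conditions, then 1 day of rest in medium with IL-2, then another 4 days of Th2 conditions. In late cultures 4-OHT was given or withheld in the second Th2 period, and in early cultures in the first. KO cultures are those with 4-OHT and WT cultures those without it, so the deletion and the drug cannot be told apart. The Gata3 experiment likewise has late KO, late WT, early KO and early WT groups, but the sources used here do not give its mice, how Gata3 was deleted or the culture times. Every group has 2 libraries. The labels do not say that replicates are separate cultures or animals, so p-values measure only the spread between these libraries, which may be technical.

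Glycolysis splits glucose into pyruvate and yields ATP without oxygen, and activated T cells are known to raise it when they begin to divide. HIFs are pairs of an oxygen-labile alpha subunit, such as HIF-1 alpha or HIF-2 alpha, and the stable partner ARNT. Prolyl hydroxylases of the EGLN family mark the alpha subunit for destruction when oxygen is present. In T cells HIF-1 alpha also accumulates after antigen receptor and cytokine signals, and it is known to act on most of the glycolytic genes.

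HIFs bind DNA at a short core, ACGTG or GCGTG, and the promoters of the genes were searched for it on both strands, since these are the letters through which HIF is known to reach its targets. Promoter sequences came from RefSeq (mouse build GRCm38.p6) and held 250 bases before and 50 bases from the transcription start, 300 bases in all. Entries existed for 36 of the 40 genes, and Slc2a3, Epas1, Bnip3l and Ndrg1 had none. ACGTG was found in 20 of the 36 promoters (55.6%), against 19.7% of all 27025 promoters in the table and 27.0% of the 7663 promoters of genes tested in the Bcl11b experiment. Either core was found in 29 of the 36 (80.6%), against 43.8% of all promoters and 64.6% of the promoters of tested genes. The 7 promoters with neither core were those of Hk1, Gpi1, Aldoa, Tpi1, Eno2, Vegfa and Mxi1. A match is a description of letters and not a binding site. The 6 promoters below are shown because the results turn on their genes. Each line gives the 250 bases before the start, 5′ to 3′ on the gene's strand, with the core in capitals: ACGTG or GCGTG where it lies on this strand, CACGT or CACGC where it lies on the other, and CACGTG where a core on each strand overlaps. They are Pgk1 (chrX:106186850-106187099, plus strand), Ldha (chr7:46845554-46845803, plus strand), Pdk1 (chr2:71872974-71873223, plus strand), Egln3 (chr12:54203875-54204124, minus strand), Ero1l, which RefSeq lists as Ero1a (chr14:45318573-45318822, minus strand), and Slc2a6 (chr2:27027999-27028248, minus strand).
Pgk1: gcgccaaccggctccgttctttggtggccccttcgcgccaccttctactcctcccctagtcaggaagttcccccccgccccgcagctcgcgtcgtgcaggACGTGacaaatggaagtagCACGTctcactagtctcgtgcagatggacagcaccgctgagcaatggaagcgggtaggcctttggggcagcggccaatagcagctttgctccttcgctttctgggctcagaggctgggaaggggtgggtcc
Ldha: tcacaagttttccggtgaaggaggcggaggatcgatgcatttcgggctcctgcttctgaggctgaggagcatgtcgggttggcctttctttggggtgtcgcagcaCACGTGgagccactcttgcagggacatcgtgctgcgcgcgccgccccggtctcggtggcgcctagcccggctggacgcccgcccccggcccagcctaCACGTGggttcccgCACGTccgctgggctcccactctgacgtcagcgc
Pdk1: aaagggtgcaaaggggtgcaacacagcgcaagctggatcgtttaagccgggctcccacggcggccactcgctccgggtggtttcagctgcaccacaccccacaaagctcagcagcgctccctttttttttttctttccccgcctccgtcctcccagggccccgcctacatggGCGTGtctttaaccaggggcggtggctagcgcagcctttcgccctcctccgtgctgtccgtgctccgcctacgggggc
Egln3: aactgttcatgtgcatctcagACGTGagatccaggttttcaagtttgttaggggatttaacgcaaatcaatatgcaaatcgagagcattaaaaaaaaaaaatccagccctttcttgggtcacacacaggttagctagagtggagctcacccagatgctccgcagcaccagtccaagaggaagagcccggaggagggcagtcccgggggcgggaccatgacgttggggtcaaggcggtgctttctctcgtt
Ero1l: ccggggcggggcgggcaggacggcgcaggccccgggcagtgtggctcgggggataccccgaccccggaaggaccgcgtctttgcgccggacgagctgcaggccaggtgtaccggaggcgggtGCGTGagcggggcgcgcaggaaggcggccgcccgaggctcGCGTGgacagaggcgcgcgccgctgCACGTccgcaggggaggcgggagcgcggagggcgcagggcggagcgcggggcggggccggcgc
Slc2a6: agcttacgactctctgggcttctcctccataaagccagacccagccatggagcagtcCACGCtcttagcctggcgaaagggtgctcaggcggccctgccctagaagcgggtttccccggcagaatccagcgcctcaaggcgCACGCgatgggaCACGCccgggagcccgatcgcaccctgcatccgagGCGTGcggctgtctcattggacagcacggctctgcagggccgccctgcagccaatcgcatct
Within these 250 bases Ldha had 5 core starts, Slc2a6 had 4, Ero1l had 3, Pgk1 had 2, and Pdk1 and Egln3 had 1 each. The 4 of Slc2a6, which encodes a hexose transporter of the GLUT family known from lysosomal membranes of macrophages, are all of the GCGTG form, 3 of them on the other strand. Slc2a6 also rose in KO cells at both stages of both experiments, as described further on. Most estimates of the set were negative in early Bcl11b, late Bcl11b and early Gata3 KO cells, but positive in late Gata3 KO cells.

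Libraries differed in ways that touch the results. The 8 Bcl11b libraries held 4687552 to 14577958 reads over genes and the 8 Gata3 libraries 5117526 to 9892746. The early Bcl11b WT libraries stood apart: their gene reads were 20.7% and 16.9% of the library total implied by the authors' RPKM values, against 40.7% to 60.3% in the other 14 libraries. They also held 3.78 and 4.87 reads per kb over sensory receptor genes, which T cells are not known to express, against at most 0.507 elsewhere. Every early comparison of the Bcl11b experiment and its late over early WT comparison rest on them, and the part of this trait in those results was not tested. Replicates spread more in the Bcl11b than in the Gata3 experiment, with biological coefficients of variation of 0.281 and 0.125. Counts were also simulated with each experiment's library sizes, mean levels and common spread, and 100 genes were changed by each fold in early KO libraries. With the Bcl11b settings 11% of 2-fold and 92% of 4-fold changes were called, and with the Gata3 settings 93% and 100%. Far more genes were called in the data (2291 of 10873 and 3257 of 10601 in early cells), so these shares do not carry over to the comparisons themselves.

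Late and early Gata3 WT libraries resembled each other closely. A chi-square of read counts over genes gave 4.43 per degree of freedom between late and early WT replicate 1, and 2.57 between late and early WT replicate 2. The 2 libraries within a group gave 14.4 in late WT and 13.4 in early WT cells. Late and early WT libraries of the same number were therefore closer to each other than replicates of a group were, whereas late and early Gata3 KO libraries gave 61.1 to 68.0. In the Bcl11b experiment, libraries of different stages gave at least 215 and libraries of the same group at most 36.1. Whether same-numbered Gata3 WT libraries share a culture is not stated.

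The deleted genes were measured as a check of the labels. Bcl11b had 75.6 and 137 CPM in late KO cells, against 139.7 and 181 CPM in late WT cells (log2 fold change -0.59 ± 0.28 SE, adjusted p = 0.421, edgeR quasi-likelihood test). In early cells it had 66.5 and 54.2 CPM in KO and 126 and 128 CPM in WT libraries (log2 fold change -1.08 ± 0.28, edgeR adjusted p = 0.0232). CPM are reads relative to the TMM-scaled library size. Gata3 had 1090.4 and 954 CPM in late KO cells against 1382 and 1327 CPM in late WT cells (log2 fold change -0.41 ± 0.11, edgeR adjusted p = 0.0361). It had 425 and 419 CPM in early KO cells against 1178 and 1279.5 CPM in early WT cells (log2 fold change -1.54 ± 0.11, edgeR adjusted p = 5.8e-06). The reduction was thus smaller in late than in early cells in both experiments, and only the Gata3 difference between stages was called (1.14 ± 0.16, edgeR adjusted p = 0.00148, against 0.48 ± 0.39 and adjusted p = 0.554 for Bcl11b). Which exons were deleted, and whether the measured transcript spans them, is not recorded in the labels.

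Markers moved with the groups. The 8 T cell markers were found in every library and summed to 7529 to 8437 CPM in late Bcl11b KO and 5172 to 5611 CPM in late WT libraries, to 4456 to 5014 CPM in early KO and 2794 to 3371 CPM in early WT libraries. In the Gata3 experiment they summed to 5416 to 5728 CPM in late KO and 4323 to 4525 CPM in late WT libraries, and to 4222 to 4316 CPM in early KO and 4145 to 4405 CPM in early WT libraries. The 5 mast cell and basophil markers summed to 42.9 to 45.3 CPM in early Bcl11b KO and 3.98 to 11.9 CPM in early WT libraries, with Mcpt8, Ms4a2 and Fcer1a at 0 in the KO libraries and Mcpt8 at 0 in the WT libraries. Macrophage and dendritic cell markers (6 of 7 in the tables) summed to 12.4 to 16.3 CPM in early KO and 29.3 to 56.0 CPM in early WT libraries, with Csf1r at 0 in KO, and to 33.7 to 34.9 CPM in late KO and 10.3 to 13.9 CPM in late WT libraries. The 5 B cell markers summed to 20.08 to 31.4 CPM in late KO and 4.40 to 5.18 CPM in late WT libraries, to 96.1 to 131 CPM in early KO and 86.8 to 102 CPM in early WT libraries, and to at most 2.03 CPM in the Gata3 experiment. The 2 CD8 T cell markers summed to 83.2 to 99.3 CPM in early Bcl11b KO and 42.3 to 42.9 CPM in early WT libraries, and to 31.0 to 39.0 CPM in early Gata3 KO and 8.39 to 11.5 CPM in early WT libraries. The 4 Th2 markers, Gata3 among them, summed to 4951 to 5259 CPM in late Bcl11b KO and 2726 to 3384 CPM in late WT libraries, and to 939 to 945 CPM in early KO and 584 to 605 CPM in early WT libraries. In the Gata3 experiment they summed to 1117 to 1195 CPM in late KO and 2073 to 2178 CPM in late WT libraries, and to 424 to 435 CPM in early KO and 1985 to 2033 CPM in early WT libraries. The part of these shifts in the results below was not tested. In bulk cultures fewer cells of a type and less RNA per cell cannot be told apart.

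Gapdh and Pgam1, which encode the dehydrogenase and the mutase of the lower part of glycolysis, had very few reads in every late Bcl11b library. Gapdh had 3.501 and 4.75 CPM in late KO and 5.46 and 6.86 CPM in late WT cells, against 186 CPM or more in each of the other 12 libraries. Pgam1 had 3.64 and 3.48 CPM in late KO and 5.53 and 7.22 CPM in late WT cells, against 376 CPM or more elsewhere. The highest late Bcl11b library was thus 3.69% of the lowest other library for Gapdh and 1.92% for Pgam1. The same drop to under 10% occurred in 84 of 6669 genes (1.26%) that had 10 CPM or more in each of the other 12 libraries, and in 26 of the 74 ribosomal protein genes among them (35.1%). Like ribosomal protein genes, Gapdh and Pgam1 have near copies in the genome, and RefSeq names 3 pseudogenes after Gapdh and 2 after Pgam1. Reads shared with such copies may have been split or dropped, so the late Bcl11b values of Gapdh and Pgam1 are uncertain. Aldoa, Pgk1 and Ldha also have 3 named pseudogenes each and Bnip3l has 1, without such a drop. Only pseudogenes named after their gene were counted, and copies under other names are missed. These counts therefore do not rank the genes by their number of near copies. Removing Gapdh and Pgam1 after this was seen left 36 genes tested. In late over early Bcl11b KO cells 20 of these were called lower and 5 higher, and in WT cells 28 and 2. Of all genes 19.6% were called lower and 17% higher in KO cells, and 22% and 19.7% in WT cells. The early KO against WT comparison compares no late library, and there 27 of the 36 were called lower and 2 higher (10.1% and 11% of all genes).

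**Figure D1:**
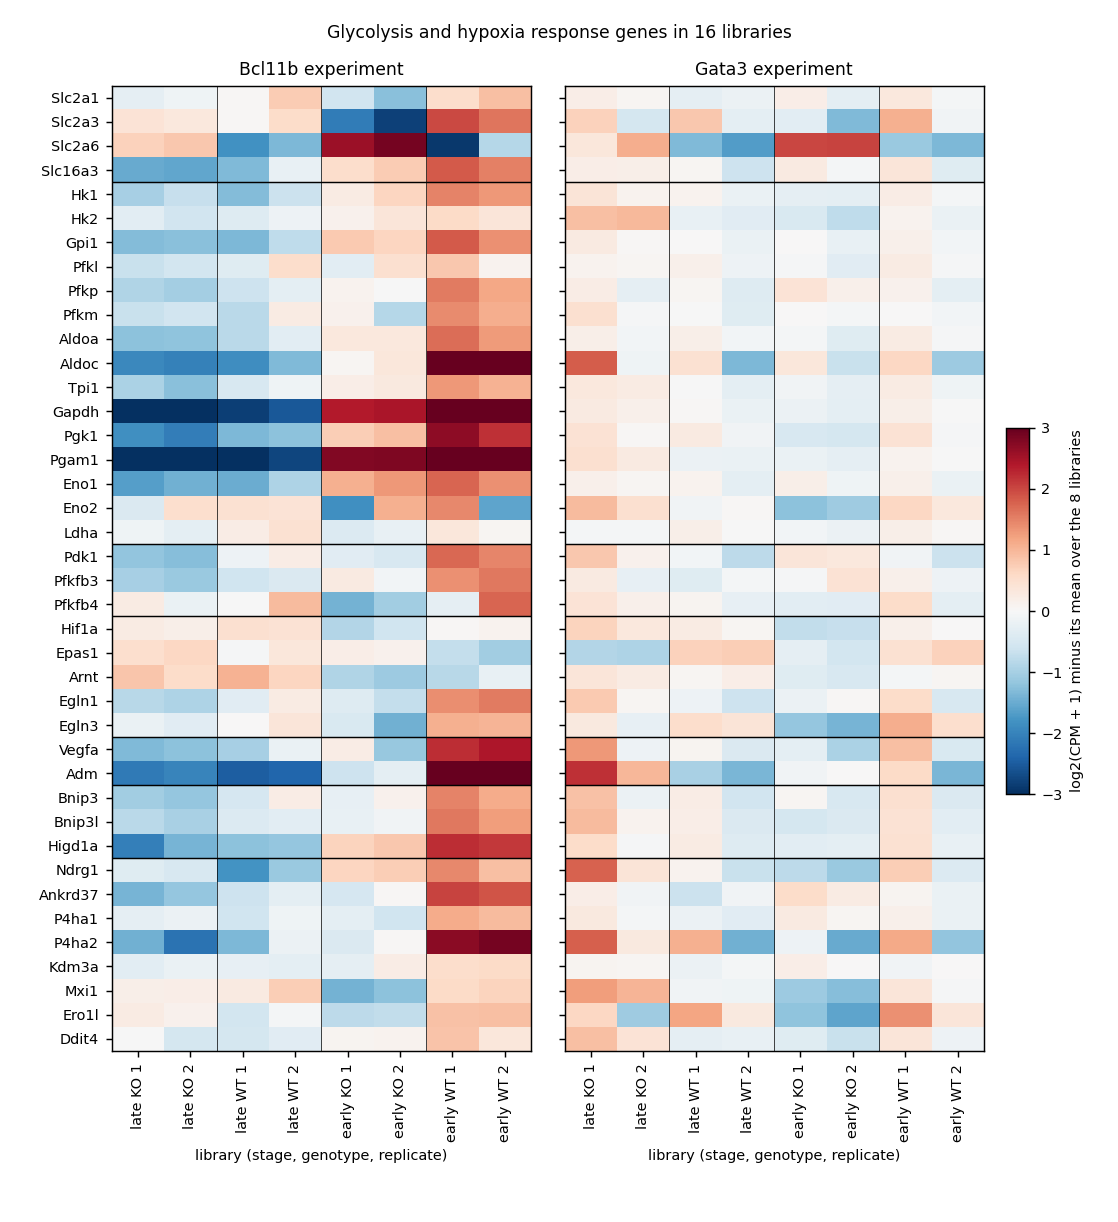
Level of each of the 40 genes in each RNA library, as log2(CPM + 1) minus the gene's mean over the 8 libraries of its experiment, with colours capped at 3 in either direction. Rows are genes by role and columns are libraries, ordered late KO, late WT, early KO and early WT in each experiment. The early Bcl11b WT columns are the highest for most rows, and the late Bcl11b columns of Gapdh and Pgam1 are the lowest.

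Across the 4 groups of the Bcl11b experiment, 35 of the 40 genes had their highest mean level in early WT cells, and in 29 of them both early WT libraries lay above the other 6. The lowest mean fell in late KO cells for 23 genes and in early KO cells for 10. The Gata3 experiment had another order: 26 genes were highest in late KO cells and 25 were lowest in early KO cells. These counts were not made over all genes, so they do not show how the set differs from other genes. The early Bcl11b WT libraries are those with the low share of gene reads.

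Loss of Bcl11b in early cultures went with lower RNA of most of the set. Of the 40 genes 38 passed the filter on low values (Eno2, the neuronal enolase, and Pfkfb4 did not), and 34 were above the filter minimum in all 8 libraries. In early KO against early WT cells 29 of the 38 genes fell and 2 rose by the edgeR quasi-likelihood test at an adjusted p under 0.05, where 10.1% of all 10873 genes tested were called lower and 11% higher. The median log2 fold change was -1.35 over the 38 genes and 0.03 over all genes tested, and 36 of the 38 estimates were negative (48.3% over all genes). With edgeR and no filter on low values the median was -1.11 over the 40 genes and -0.69 over all genes. There 26 of the 40 lay below the median of all genes and 14 above it. In late KO against late WT cells 1 gene rose and 1 fell, where 1.69% of all genes were called higher and 0.524% lower, and the median was -0.50 against -0.02 over all genes. The late count moved with the tool: DESeq2 called 2 genes higher and 8 lower, and edgeR on the 4 late libraries alone 2 higher and 12 lower. Counts over all genes moved too, from 184 higher and 57 lower to 381 and 206 of 10873 with DESeq2. With the 4 late libraries alone they were 949 and 635 of 10782. The early result depends on the scale. The authors' RPKM values divide by the implied library total, of which gene reads were a smaller share in the early WT libraries. With limma on log2(RPKM + 1) the median over all genes in early KO against WT moved to 0.86. That of the set moved to -0.19. There 4 genes were called higher and 10 lower, where 6553 of all 10873 genes were called higher and 336 lower. The estimates of 10 genes turned positive (Slc16a3, Hk1, Hk2, Gpi1, Tpi1, Gapdh, Pgam1, Eno1, Ldha and Hif1a), and 35 of the 38 genes lay below the median of all genes.

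**Figure D2:**
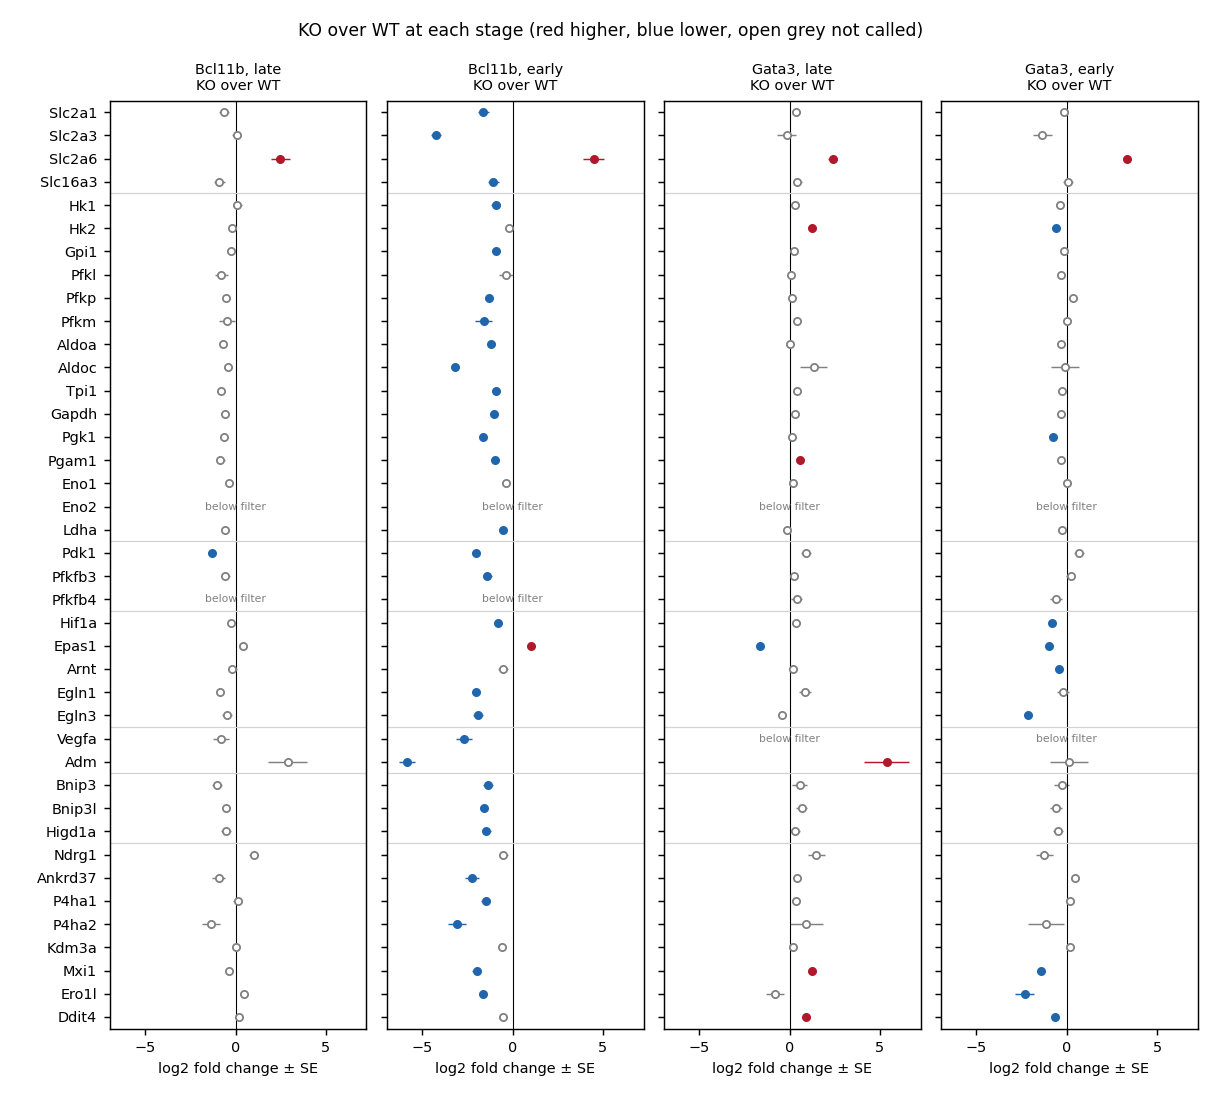
Log2 fold change ± SE of KO over WT for each gene, in panels for late Bcl11b, early Bcl11b, late Gata3 and early Gata3 cultures. Red points were called higher, blue points lower, open grey points were not called, and genes below the filter are marked. The early Bcl11b panel is mostly blue and left of 0, though 10 of its estimates turn positive on the RPKM scale, while the late Gata3 panel has 6 red points and 1 blue point.

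Of the 4 glucose and lactate transporters, 3 fell and 1 rose in early Bcl11b KO cells. Slc2a3 encodes GLUT3, a high-affinity glucose transporter of lymphocytes. It had 315 and 296 CPM in late KO and 240.5 and 348 CPM in late WT cells, and 54.6 and 33.2 CPM in early KO against 930.3 and 720.1 CPM in early WT cells. The late groups overlapped, while both early KO libraries lay far below both early WT libraries. Slc2a3 fell in early KO cells with a log2 fold change of -4.23 ± 0.29 (edgeR adjusted p = 2.81e-05) and was not called in late cells (0.05 ± 0.25, adjusted p = 0.99). Slc2a1, encoding the basal transporter GLUT1, had 194 and 216 CPM in late KO and 240.5 and 401 CPM in late WT cells. Its early levels were 157 and 97.6 CPM in KO against 341 and 438 CPM in WT cells, a fall of 1.61 ± 0.29 on the log2 scale (edgeR adjusted p = 0.00388), with no overlap at either stage. Slc16a3, encoding the lactate exporter MCT4, had 34.9 and 33.7 CPM in late KO and 40.2 and 87.2 CPM in late WT cells, and 147 and 172 CPM in early KO against 368 and 294 CPM in early WT cells. Its early fall of 1.05 ± 0.31 on the log2 scale was called (edgeR adjusted p = 0.0352), but not when early WT replicate 1, either early KO library or either late KO library was left out (p up to 0.122), and the estimate turned to 0.092 with limma on log2(RPKM + 1).

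Slc2a6 went the other way at both stages. It had 33.9 and 36.6 CPM in late KO against 5.18 and 7.43 CPM in late WT cells, and 128 and 157 CPM in early KO against 1.88 and 10.9 CPM in early WT cells. Every KO library lay above every WT library. The rise was 2.48 ± 0.52 on the log2 scale in late cells (edgeR adjusted p = 0.037) and 4.47 ± 0.58 in early cells (adjusted p = 0.000768), and the late call was lost when any of the 4 late libraries was left out (p up to 0.344).

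Among the 15 enzymes of the glycolytic chain, 14 were tested in the Bcl11b experiment. In early KO cells 11 of them fell, none rose, and all 14 estimates were negative with a median of -0.96, of which 8 turned positive with limma on log2(RPKM + 1). Hk2, the inducible hexokinase of activated lymphocytes, had 169 and 141 CPM in late KO and 161 and 188 CPM in late WT cells, and 229 and 271 CPM in early KO and 313 and 268 CPM in early WT cells. Its groups overlapped at both stages, and neither difference was called (-0.17 ± 0.19, edgeR adjusted p = 0.871, in late cells and -0.22 ± 0.19, adjusted p = 0.443, in early cells). Its relative Hk1 had 232 and 309 CPM in early KO against 553 and 485 CPM in early WT cells. Gpi1, which converts glucose 6-phosphate to fructose 6-phosphate, had 827 and 758 CPM in early KO against 1734 and 1238 CPM in early WT cells. Hk1, Gpi1, Pfkm, the muscle phosphofructokinase, and Ldha were called lower, but each of these calls was lost without early WT replicate 1 and without at least 1 KO library (highest edgeR adjusted p of 0.0908 for Hk1, 0.0775 for Gpi1, 0.11 for Pfkm and 0.146 for Ldha), and the estimates of Hk1, Gpi1 and Ldha turned positive on the RPKM scale. The platelet-type phosphofructokinase Pfkp fell by 1.33 ± 0.19 (adjusted p = 0.00116) and the liver type Pfkl was not called (-0.36 ± 0.37, adjusted p = 0.516).

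The aldolases showed how far members of a family can differ. Aldoa, the main aldolase of lymphocytes, had 483 and 489 CPM in late KO and 645 and 910.0 CPM in late WT cells, and 1417 and 1408 CPM in early KO against 3646 and 2768 CPM in early WT cells. Aldoc, the brain-type enzyme, had 25.2 and 23.7 CPM in late KO and 26.7 and 39.4 CPM in late WT cells, and 103 and 126 CPM in early KO against 1118 and 998 CPM in early WT cells. In both genes the early WT libraries were the highest of the experiment and the early groups did not overlap. The early log2 fold change was -3.20 ± 0.22 for Aldoc (edgeR adjusted p = 2.81e-05) and -1.18 ± 0.19 for Aldoa (adjusted p = 0.00242). Pgk1, the first ATP-yielding kinase of the pathway, had 154 and 129.8 CPM in late KO and 217 and 234 CPM in late WT cells, and 919 and 1043 CPM in early KO against 3562 and 2524 CPM in early WT cells. It fell in early KO cells by 1.63 ± 0.19 on the log2 scale (adjusted p = 0.000452) and was not called in late cells (-0.67 ± 0.19, adjusted p = 0.109). Ldha, which reduces pyruvate to lactate, had 1454 and 1299.5 CPM in late KO and 1853 and 2198 CPM in late WT cells, and 1193 and 1361 CPM in early KO against 2035 and 1675 CPM in early WT cells. Its KO libraries lay below the WT libraries at both stages by a similar amount, -0.56 ± 0.16 in late (adjusted p = 0.122) and -0.54 ± 0.16 in early cells (adjusted p = 0.039), the early estimate being 0.61 on the RPKM scale.

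Gapdh had 240.3 and 253 CPM in early KO against 504 and 502 CPM in early WT cells, and Pgam1 had 379.9 and 389.5 CPM in early KO against 683 and 834 CPM in early WT cells. Both fell in early KO cells (-1.03 ± 0.19, edgeR adjusted p = 0.00418, for Gapdh and -0.98 ± 0.18, adjusted p = 0.00425, for Pgam1), where their read numbers were not low, but were 0.12 and 0.17 on the RPKM scale with limma. Tpi1, the triose isomerase, also fell (-0.93 ± 0.19, adjusted p = 0.00724, but 0.22 on the RPKM scale), whereas the enolase Eno1 was not called (-0.38 ± 0.22, adjusted p = 0.239).

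The control enzymes Pdk1 and Pfkfb3 were lower in KO cells. Pdk1, the kinase that shuts pyruvate out of the mitochondrial dehydrogenase, had 32.8 and 30.8 CPM in late KO against 67.9 and 88.7 CPM in late WT cells, and 59.5 and 54.0 CPM in early KO against 250.5 and 211 CPM in early WT cells. Its groups were apart at both stages, and it was the only gene of the set called lower at both: -1.30 ± 0.22 in late cells (edgeR adjusted p = 0.0145) and -2.02 ± 0.22 in early cells (adjusted p = 0.000359). The late call was lost when any late library was left out, with p up to 0.185. Pfkfb3, which makes the sugar phosphate that activates phosphofructokinase, had 69.3 and 54.6 CPM in early KO against 151 and 173 CPM in early WT cells (-1.39 ± 0.23, adjusted p = 0.00274). In late cells it had 28.2 and 26.0 CPM in KO and 37.7 and 42.4 CPM in WT libraries, which was not called (-0.56 ± 0.23, adjusted p = 0.311).

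The HIF subunits themselves did not move together. Hif1a had 1085 and 1027 CPM in late KO and 1273 and 1226 CPM in late WT cells, and 499 and 605 CPM in early KO against 928 and 978 CPM in early WT cells. It fell in early KO cells (-0.79 ± 0.15, edgeR adjusted p = 0.00524), while the late difference was not called (-0.24 ± 0.15, adjusted p = 0.602). Epas1, encoding HIF-2 alpha, had 2217 and 2421 CPM in late KO and 1543 and 1998 CPM in late WT cells, and 1801 and 1726 CPM in early KO against 955 and 768 CPM in early WT cells. It rose in early KO cells (1.03 ± 0.17, adjusted p = 0.00269) with no overlap at either stage, and was not called in late cells (0.39 ± 0.17, adjusted p = 0.353). The early fall of Hif1a turned to 0.34 with limma on log2(RPKM + 1), so its direction depended on the scale. Arnt, the shared partner, was not called at either stage. Of the HIF hydroxylases, Egln1 had 157 and 147 CPM in late KO and 222 and 331 CPM in late WT cells, and 214 and 172 CPM in early KO against 739.5 and 824 CPM in early WT cells, a fall of 2.02 ± 0.22 (adjusted p = 0.000323). Egln3, the hydroxylase that HIF itself induces, had 262 and 131 CPM in early KO against 758 and 728 CPM in early WT cells, a fall of 1.92 ± 0.28 (adjusted p = 0.00146).

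Secreted and mitochondrial targets of HIF fell in early KO cells, all 5 of them, and none of these estimates turned on the RPKM scale. Adm encodes the vasodilator peptide adrenomedullin. It had 2.61 and 3.53 CPM in early KO against 230.4 and 126 CPM in early WT cells, and with -5.86 ± 0.44 (edgeR adjusted p = 5.91e-05) the largest early fold change of the set. In late cells it had 8 reads over the KO and 1 read over the WT libraries, a ratio of 9.59 with a counting interval (95%) of 1.29 to 425. Vegfa, the vascular growth factor, had 10.8 and 11.7 CPM in late KO and 13.9 and 24.8 CPM in late WT cells, and 33.7 and 12.5 CPM in early KO against 137 and 159 CPM in early WT cells (early log2 fold change -2.68 ± 0.45, adjusted p = 0.00285). Bnip3 and Bnip3l, receptors that send mitochondria to autophagy, fell by 1.36 ± 0.28 and 1.59 ± 0.18 in early KO cells (adjusted p = 0.00742 and adjusted p = 0.000408). Bnip3l had 189 and 208 CPM in early KO against 667 and 532 CPM in early WT cells. Higd1a, a mitochondrial inner membrane protein, had 65.1 and 72.8 CPM in early KO against 194 and 183 CPM in early WT cells (-1.45 ± 0.26, adjusted p = 0.00398).

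Of the 8 remaining hypoxia-response genes 5 fell in early KO cells. Ero1l, the oxidase that drives disulfide formation in the endoplasmic reticulum, had 1264 and 1155 CPM in late KO and 724 and 1015 CPM in late WT cells, and 621 and 634 CPM in early KO against 1952 and 1993 CPM in early WT cells. The KO libraries lay above the WT libraries in late cells and below them in early cells, and only the early difference was called (-1.65 ± 0.18, edgeR adjusted p = 0.000317, against 0.48 ± 0.17, adjusted p = 0.234). Mxi1, an antagonist of Myc, had 77.5 and 78.5 CPM in late KO and 83.3 and 116 CPM in late WT cells, and 25.02 and 28.5 CPM in early KO against 103 and 110.2 CPM in early WT cells (early -1.99 ± 0.24, adjusted p = 0.000576). P4ha2, a catalytic subunit of collagen prolyl hydroxylase, had 9.17 and 13.1 CPM in early KO against 89.6 and 100.2 CPM in early WT cells (-3.09 ± 0.50, adjusted p = 0.00234). Its relative P4ha1 (-1.48 ± 0.25) and the HIF target Ankrd37 (-2.23 ± 0.37) fell as well, at adjusted p = 0.00297 and adjusted p = 0.00272. The stress gene Ndrg1, the histone demethylase gene Kdm3a and the mTORC1 inhibitor gene Ddit4 were not called. Ndrg1 had 242 and 224 CPM in late KO against 89.3 and 144 CPM in late WT cells, but 485 and 520.0 CPM in early KO against 845 and 583 CPM in early WT cells.

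**Figure D3:**
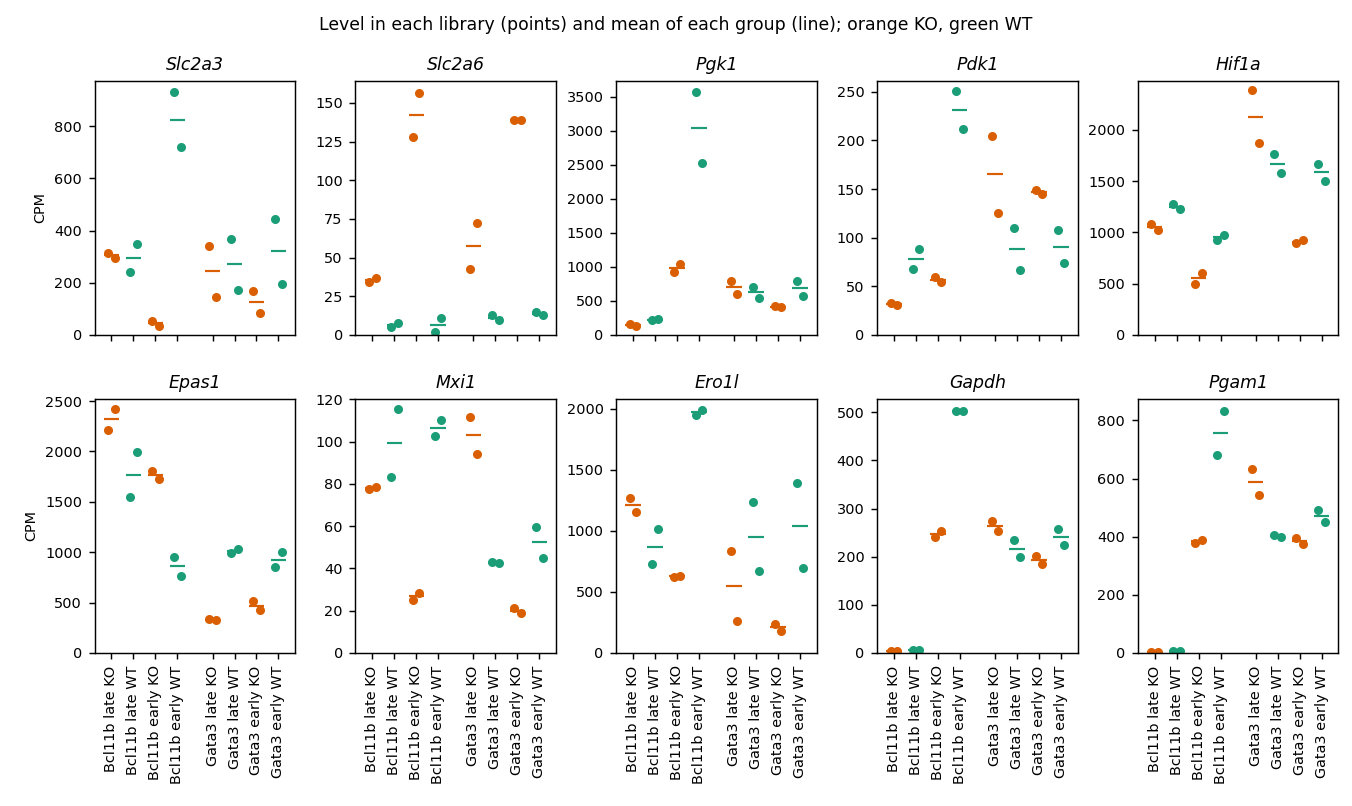
Level in CPM (linear axis from 0) of 10 genes in each library, with points for libraries and a line for the mean of the 2 libraries of a group, orange for KO and green for WT. Slc2a6 is higher in KO than in WT cells in all 4 pairs of groups, and the early Bcl11b WT libraries stand above the rest for Slc2a3, Pgk1 and Ero1l.

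After loss of Gata3 most calls in the set were falls in early cells and rises in late cells. In the Gata3 experiment 38 of the 40 genes were tested (Eno2 and Vegfa fell below the filter). In early KO against early WT cells 1 gene rose and 9 fell, where 14% of all 10601 genes tested were called higher and 16.8% lower, and the median log2 fold change was -0.29 against 0.00 over all genes. In late KO against late WT cells 6 genes rose and 1 fell, where 8.44% of all genes were called higher and 5.59% lower, and the median was 0.37 against 0.00. In either direction 10 of the 38 genes were called in early cells, where 30.7% of all genes were, and 7 of 38 in late cells, where 14% of all genes were. In late cells 33 of the 38 estimates were positive. Without the filter on low values 21 genes were called in early and 16 in late cells, where 4169 and 2269 of all 16268 genes were. With a replicate block the calls held, and 14 more were made in early and 15 more in late cells. There 4226 and 2510 of all 10601 genes were called, and the labels do not say what the replicate numbers stand for.

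Slc2a6 rose at both stages after loss of Gata3 as well. It had 42.9 and 72.7 CPM in late KO against 12.8 and 9.75 CPM in late WT cells, and 139 CPM in each early KO library against 14.9 and 12.7 CPM in early WT cells. No KO library overlapped the WT libraries. The log2 fold change was 2.38 ± 0.24 in late cells (edgeR adjusted p = 0.000212) and 3.33 ± 0.24 in early cells (adjusted p = 5.89e-06). Its transport relatives did not follow. Slc2a3 had 341 and 147 CPM in late KO and 369 and 171 CPM in late WT cells, and 169 and 83.5 CPM in early KO against 443 and 197 CPM in early WT cells. The late groups overlapped and the early groups did not, and the early difference was not called (-1.34 ± 0.53, adjusted p = 0.0842). Slc2a1 had 374 and 342 CPM in late KO and 271 and 290.2 CPM in late WT cells, and 378 and 267 CPM in early KO and 409 and 314 CPM in early WT cells, and was not called at either stage. Slc16a3 was not called either (0.43 ± 0.26, adjusted p = 0.323, in late and 0.08 ± 0.26, adjusted p = 0.848, in early cells).

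Of the glycolytic enzymes, Hk2 moved in opposite directions at the stages. It had 234 and 244 CPM in late KO against 106 and 98.9 CPM in late WT cells, and 90.9 and 73.2 CPM in early KO against 134 and 108 CPM in early WT cells. Both late KO libraries lay above and both early KO libraries below their WT libraries, and both differences were called (1.22 ± 0.14, edgeR adjusted p = 0.000463, in late and -0.56 ± 0.14, adjusted p = 0.0138, in early cells). The early call was lost without early WT replicate 1 or early KO replicate 2 (p up to 0.145). Pgk1 had 792 and 603 CPM in late KO and 705 and 548 CPM in late WT cells, and 420.1 and 406 CPM in early KO against 796 and 574 CPM in early WT cells. Its early fall of 0.73 ± 0.19 (adjusted p = 0.0156) was lost without early WT replicate 1 or either early KO library (p up to 0.128). Pgam1 had 633 and 544 CPM in late KO against 406 and 398 CPM in late WT cells, and 395 and 376 CPM in early KO and 491 and 452 CPM in early WT cells. It rose in late KO cells (0.55 ± 0.11, adjusted p = 0.0105), a call that was lost without either late WT library (p up to 0.0743). Gapdh had 274 and 253 CPM in late KO and 234 and 198 CPM in late WT cells, and 201 and 186 CPM in early KO and 256 and 225 CPM in early WT cells, with no call. Ldha had 4009.8 and 4005 CPM in late KO and 4718 and 4166 CPM in late WT cells, and 3983 and 3721 CPM in early KO and 4727 and 4329 CPM in early WT cells, again with no call (-0.15 ± 0.11, adjusted p = 0.437, and -0.23 ± 0.11, adjusted p = 0.144).

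Pdk1, lower in Bcl11b KO cells, was not lower in Gata3 KO cells. It had 205 and 126 CPM in late KO and 109.6 and 66.3 CPM in late WT cells, and 149 and 145 CPM in early KO and 108 and 73.8 CPM in early WT cells. The KO libraries lay above the WT libraries at both stages, but neither difference was called (0.90 ± 0.28, edgeR adjusted p = 0.061, in late and 0.70 ± 0.28, adjusted p = 0.0879, in early cells). The difference between the experiments was not tested.

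The oxygen-sensing genes held 4 of the 9 early falls. Hif1a had 2386 and 1869.5 CPM in late KO and 1768 and 1576 CPM in late WT cells, and 899 and 924 CPM in early KO against 1666 and 1505 CPM in early WT cells. It fell in early KO cells (-0.80 ± 0.14, edgeR adjusted p = 0.00144), while its late KO libraries lay above the WT libraries without a call (0.35 ± 0.14, adjusted p = 0.128). Epas1 had 337 and 325 CPM in late KO against 989 and 1032 CPM in late WT cells, and 515 and 423 CPM in early KO against 852 and 1002 CPM in early WT cells. It fell at both stages (-1.61 ± 0.13, adjusted p = 5.41e-05, in late and -0.98 ± 0.13, adjusted p = 0.00028, in early cells), whereas it rose in early Bcl11b KO cells. Egln3 had 256 and 176 CPM in late KO and 302 and 273 CPM in late WT cells, and 92.998 and 79.6 CPM in early KO against 451 and 298 CPM in early WT cells. It fell in early KO cells (-2.12 ± 0.22, adjusted p = 6.54e-05) and was not called in late cells (-0.42 ± 0.22, adjusted p = 0.253). Arnt fell slightly in early KO cells (-0.43 ± 0.13, adjusted p = 0.0254), a call that was lost without any 1 of the 4 early libraries (p up to 0.178).

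Among the target genes, Mxi1 had 112 and 94.4 CPM in late KO against 43.1 and 42.4 CPM in late WT cells, and 21.1 and 18.7 CPM in early KO against 59.8 and 45.0 CPM in early WT cells. It rose in late KO cells (1.26 ± 0.16, edgeR adjusted p = 0.000698) and fell in early KO cells (-1.39 ± 0.17, adjusted p = 0.000151), with no overlap at either stage. Ddit4 did the same with smaller steps. It had 191 and 135 CPM in late KO against 84.3 and 87.3 CPM in late WT cells, and 78.9 and 63.6 CPM in early KO against 131 and 91.4 CPM in early WT cells (0.92 ± 0.20, adjusted p = 0.0151, in late and -0.64 ± 0.21, adjusted p = 0.0403, in early cells), and both calls were lost without single libraries (p up to 0.0959 in late and 0.288 in early cells). For the late call these were either late WT library or late KO replicate 1, and for the early call early WT replicate 1 or either early KO library. Ero1l had 834 and 260.1 CPM in late KO and 1238 and 667 CPM in late WT cells, and 235 and 181 CPM in early KO against 1392 and 694 CPM in early WT cells. Replicate 1 exceeded replicate 2 in each of these groups, and the early fall (-2.33 ± 0.52, adjusted p = 0.00741) did not hold when early KO replicate 2 was left out (adjusted p = 0.0773). Adm had 96 reads over the late KO and 3 reads over the late WT libraries, a ratio of 40.4 with a counting interval (95%) of 13.4 to 199. It was called higher in late KO cells (adjusted p = 0.0176), though not without either late WT library or late KO replicate 1 (p up to 0.0925). Ndrg1 had 373 and 142 CPM in late KO against 118 and 67.8 CPM in late WT cells, and 62.8 and 49.7 CPM in early KO against 183 and 81.8 CPM in early WT cells, apart at both stages in opposite directions and called at neither (1.47 ± 0.47, adjusted p = 0.0692, and -1.23 ± 0.48, adjusted p = 0.0799).

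Time in culture was examined by setting late against early cells of the same genotype. These comparisons share libraries with the KO comparisons, so they are given by their own values only. In late over early Bcl11b KO cells 5 genes rose and 22 fell, where 17% of all genes tested were called higher and 19.6% lower, with a median of -1.03 against 0.00 over all genes. In late over early Bcl11b WT cells 2 rose and 30 fell, where 41.7% of all genes were called, 19.7% higher and 22% lower, with a median of -1.53 against -0.01. On log2(RPKM + 1) with limma the WT median over the set was -0.09 while that over all genes was 1.04, and 11 estimates of the set turned positive. With edgeR and no filter on low values the WT median was -1.23 over the 40 genes and -1.31 over all genes, and 22 of the 40 lay above the median of all genes. In late over early Gata3 KO cells 13 rose and 2 fell, where 14.3% of all genes were called higher and 10.3% lower, with a median of 0.53 against 0.01. In late over early Gata3 WT cells none of the genes was called, where the share of all genes called was 0%. Beside that count of 0 from edgeR, 128 of 10601 genes and 0 of the set had an unadjusted p under 0.05, DESeq2 called 0 genes, and limma called 0 genes on log2(RPKM + 1) and 1 on log2(RPKM + 0.1). The estimates of the set in that comparison were small, with a median of -0.18, and 35 of 38 were negative.

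**Figure D4:**
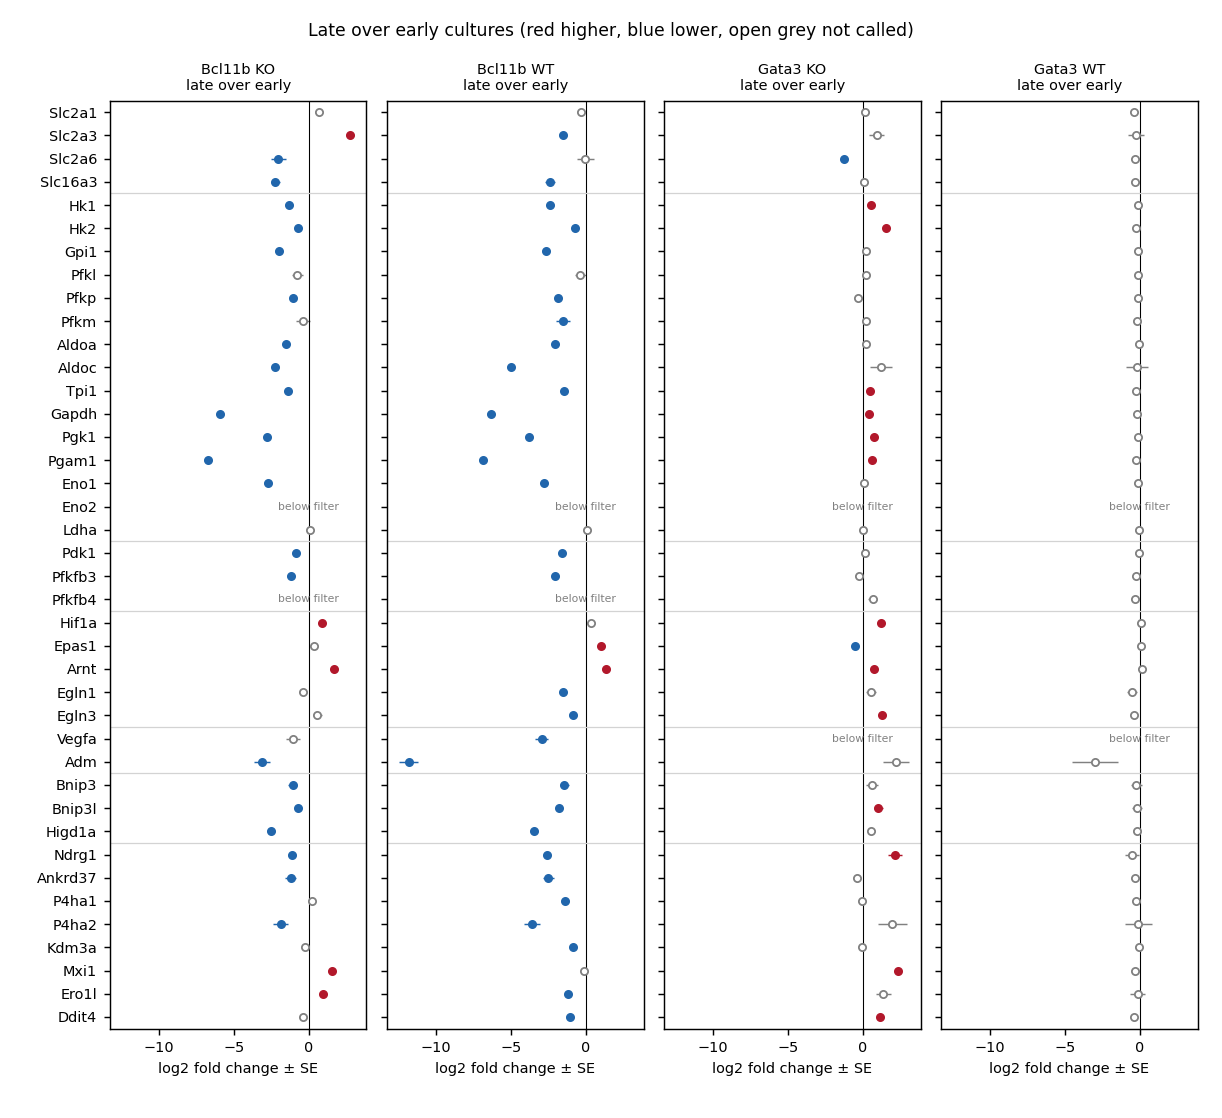
Log2 fold change ± SE of late over early cultures for each gene, in panels for Bcl11b KO, Bcl11b WT, Gata3 KO and Gata3 WT cells. Red points were called higher, blue points lower, and open grey points were not called. Most points of both Bcl11b panels are blue, though 11 of the WT estimates turn positive on the RPKM scale, 13 red points lie in the Gata3 KO panel, and no point of the Gata3 WT panel was called.

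Most enzymes fell with time in the Bcl11b experiment. In KO cells 11 of the 14 enzymes fell and in WT cells 12 of 14, with medians of -1.45 and -2.20, none rose (in WT cells Hk2 and Pfkl turned positive on the RPKM scale), and Ldha was not called in either (0.11 ± 0.16, edgeR adjusted p = 0.629, in KO and 0.13 ± 0.16, adjusted p = 0.557, in WT cells). Pgk1 fell by 2.79 ± 0.20 in KO (adjusted p = 4.41e-06) and by 3.75 ± 0.21 in WT cells (adjusted p = 5.48e-07). The falls of Gapdh (-5.92 ± 0.24 in KO and -6.35 ± 0.24 in WT cells) and Pgam1 (-6.75 ± 0.24 and -6.89 ± 0.23) were the largest among the enzymes and rest on the low late reads described above. Slc2a3 rose in late KO cells (2.80 ± 0.27, adjusted p = 4e-05) but fell in late WT cells (-1.49 ± 0.26, adjusted p = 0.00125). Pfkfb3 fell in both (-1.19 ± 0.23, adjusted p = 0.00289, and -2.02 ± 0.23, adjusted p = 0.000109). Higd1a, with 9.15 and 14.97 CPM in late KO and 16.8 and 17.8 CPM in late WT cells, fell with time (-2.52 ± 0.28 in KO and -3.44 ± 0.28 in WT cells). Beside Slc2a3, Hif1a, Arnt, Mxi1 and Ero1l rose in late KO cells, and Epas1 and Arnt rose in late WT cells, so that Arnt rose in both genotypes. It had 126 and 104 CPM in late KO against 37.3 and 32.6 CPM in early KO cells (1.72 ± 0.27, adjusted p = 0.000863), and 147 and 112 CPM in late WT against 39.2 and 60.4 CPM in early WT cells (1.38 ± 0.27, adjusted p = 0.00243). Adm had 1 read over the late WT libraries and 1701 reads over the early WT libraries, lower by a ratio of 5014 with a counting interval (95%) of 899 to 198147. In KO cells 8 of the 27 calls, and in WT cells 4 of the 32, were lost when some single library was left out. The KO calls were those of Slc2a6, Hk2, Pdk1, Bnip3, Bnip3l, Ndrg1, Ankrd37 and P4ha2, all lost without late KO replicate 2 (p up to 0.192 over the libraries left out). The WT calls were those of Hk2, Pfkm, Egln3 and Kdm3a, all lost without late WT replicate 1 (p up to 0.191).

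In the Gata3 KO cells the late rise included Hk2 (1.54 ± 0.14, edgeR adjusted p = 5.58e-05), Hif1a (1.22 ± 0.14, adjusted p = 0.000176), Egln3 (1.32 ± 0.22, adjusted p = 0.00211), Mxi1 (2.37 ± 0.17, adjusted p = 1.16e-05) and Ndrg1 (2.19 ± 0.48, adjusted p = 0.00942). Gapdh, Tpi1, Pgk1, Pgam1 and Hk1 rose by 0.44 to 0.75 on the log2 scale. Slc2a6 (-1.25 ± 0.22, adjusted p = 0.00251) and Epas1 (-0.50 ± 0.13, adjusted p = 0.019) fell. Bnip3l had 238 and 134 CPM in late KO against 85.0 and 91.8 CPM in early KO cells (1.07 ± 0.31, adjusted p = 0.0341). Of the 15 calls, those of Hk1, Tpi1, Gapdh, Pgk1, Pgam1, Epas1, Bnip3l and Ndrg1 were lost without at least 1 library. That library was mostly either early KO library or late KO replicate 1. The other calls held whichever library was left out. Without the filter on low values 23 genes rose and 2 fell, where 1907 of all 16268 genes rose and 1535 fell. Gata3 RNA itself was higher in late than in early KO cells (1.28 ± 0.11, adjusted p = 3.83e-05), and its part in these rises was not tested.

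The test of the difference itself asked whether the KO effect in late cells differed from that in early cells. In the Bcl11b experiment 8 genes had a higher late effect and none a lower one, where 3.24% of all genes were called, 1.95% higher and 1.29% lower. The median difference was 0.82 on the log2 scale against -0.04 over all genes, but without the filter on low values it was 0.56 against 0.87, with 26 of the 40 genes below the median of all genes. The 8 were Slc2a3 (4.29 ± 0.37, edgeR adjusted p = 0.00116), Aldoc (2.77 ± 0.30, adjusted p = 0.00287), Ero1l (2.13 ± 0.24, adjusted p = 0.00287), Mxi1 (1.64 ± 0.33, adjusted p = 0.0297), P4ha1 (1.61 ± 0.35, adjusted p = 0.0381), Ndrg1 (1.505 ± 0.34, adjusted p = 0.0438), Bnip3l (1.07 ± 0.25, adjusted p = 0.0462) and Adm, whose late reads are too few for a size. Slc2a3, Aldoc and Ero1l kept the call whichever library was left out, with p at most 0.0268. The other 5 were lost without late KO replicate 2, among other libraries (p up to 0.2). DESeq2 called 14 genes higher, where it called 538 of all 10873 genes higher and 364 lower. On log2(RPKM + 1) with limma the median over all genes moved to -1.04 and that of the set to -0.41. There 31 of the 38 genes lay above the median of all genes, and the estimate of Bnip3l turned to -0.26. With log2(RPKM + 0.1) 3 genes of the set were called higher and 10 lower. Of all 10873 genes 225 were called higher and 5621 lower on that scale.

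In the Gata3 experiment 8 genes had a higher late effect and none a lower one, where 7.74% of all genes were called higher and 4.47% lower, with a median of 0.68 against 0.01 over all genes. They were Hk2 (1.79 ± 0.20, edgeR adjusted p = 0.000479), Mxi1 (2.66 ± 0.23, adjusted p = 0.000127), Hif1a (1.15 ± 0.19, adjusted p = 0.00434), Egln3 (1.70 ± 0.31, adjusted p = 0.00648), Ddit4 (1.56 ± 0.29, adjusted p = 0.0074), Pgam1 (0.84 ± 0.16, adjusted p = 0.00824), Ndrg1 (2.70 ± 0.67, adjusted p = 0.0279) and Arnt (0.62 ± 0.18, adjusted p = 0.0489). Hk2, Mxi1, Hif1a, Egln3 and Ddit4 kept the call whichever library was left out, while Pgam1, Ndrg1 and Arnt lost it without early KO replicate 2 (p up to 0.184). DESeq2 called 11 genes higher and 2 lower, and edgeR without the filter 22 and 2. Of all genes DESeq2 called 818 of 10601 higher and 523 lower, and edgeR without the filter 1252 and 824 of 16268. These differences include the late and early WT libraries that resembled each other more than replicates did, and whose part in the result was not tested.

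Other genes of the same pathways, in lists also chosen with earlier results of these data known, were counted beside the set. Each count reads against the share of all genes called, which in early Bcl11b KO cells was 11% higher and 10.1% lower. Of 36 further HIF-pathway and hypoxia-response genes tested, 1 rose and 20 fell in early Bcl11b KO against WT cells, with a median of -1.43. Named by smallest p, Gbe1, the glycogen branching enzyme, fell by 3.97 ± 0.39 (edgeR adjusted p = 0.000218), Selenbp1 by 4.98 ± 0.51 (adjusted p = 0.000266) and the metallothionein gene Mt1 by 3.03 ± 0.34 (adjusted p = 0.000409). Of 18 glycolysis and glucose-use genes outside the set 1 rose and 3 fell, with a median of 0.41, and Pgm2, a phosphoglucomutase, fell by 2.11 ± 0.25 (adjusted p = 0.000524) while Ldhb, the heart-type lactate dehydrogenase, rose by 1.67 ± 0.27 (adjusted p = 0.00256). None of 7 pentose phosphate genes was called, 2 of 24 tricarboxylic acid cycle genes rose and 2 fell, and 4 of 32 oxidative phosphorylation genes rose, near the share of all genes, and none fell, with Ndufa1 at 1.32 ± 0.28 (adjusted p = 0.00797). Of 15 genes of Myc and mTORC1 metabolic control 2 rose, Myc (0.73 ± 0.23, adjusted p = 0.0477) and the glutamine transporter gene Slc1a5 (0.80 ± 0.20, adjusted p = 0.0189), and 2 fell. In late Bcl11b KO cells 1.69% of all genes were called higher and 0.524% lower. Of the 36 further hypoxia genes 2 rose there, Cited2 (1.46 ± 0.21, adjusted p = 0.00897) and Bhlhe40 (1.07 ± 0.18, adjusted p = 0.0145). None of the other listed genes was called.

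After loss of Gata3 the shares of all genes called were 8.44% higher and 5.59% lower in late cells and 14% and 16.8% in early cells. Of the lists, 3 of 34 further hypoxia genes rose and 11 fell in early cells, and 2 rose and 1 fell in late cells. Bhlhe40, a transcription factor gene of activated T cells, rose at both stages, by 1.78 ± 0.13 in late (edgeR adjusted p = 3.45e-05) and 1.403 ± 0.13 in early cells (adjusted p = 3e-05). Rbpj, encoding the nuclear partner of Notch, fell by 1.84 ± 0.12 in early KO cells (adjusted p = 2.24e-06). Glycolysis genes outside the set gave 0 rises and 3 falls of 16 in late cells and 1 rise and 7 falls in early cells, where Eno3, the muscle enolase, rose by 2.22 ± 0.26 (adjusted p = 0.00014). Of 24 tricarboxylic acid cycle genes 2 fell in late cells, and 1 rose and 3 fell in early cells. Mdh1, the cytosolic malate dehydrogenase, fell at both stages (-1.15 ± 0.15, adjusted p = 0.000889, in late and -1.16 ± 0.15, adjusted p = 0.000247, in early cells). Oxidative phosphorylation genes gave 0 rises and 1 fall of 32 in late cells and 0 rises and 5 falls in early cells, the early falls being near the share of all genes. Irf4, a factor needed for effector T cell metabolism, fell by 2.27 ± 0.25 in early KO cells (adjusted p = 8.76e-05). In late over early Bcl11b cells 18 of 32 oxidative phosphorylation genes fell and 1 rose in KO cells, and 13 fell and 4 rose in WT cells, where 19.6% (KO) and 22% (WT) of all genes were called lower.

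Peaks of both factors came from late WT cells, from 1 chromatin immunoprecipitation library for each antibody without a replicate. Coordinates are in mm10, the build named in the submitters' processing notes, and each peak belongs to the gene whose start the authors' list gives as closest. Bcl11b peaks lay closest to 31 of the 40 genes (77.5%), against 50% of the 10873 genes tested, and within 1 kb of the start in 20 (50%), against 30.9%. GATA3 peaks lay closest to 29 (72.5%), against 53.5%, and within 1 kb in 10 (25%), against 16.4%. Both factors had peaks at 24 of the genes, Bcl11b without GATA3 at 7 and GATA3 without Bcl11b at 5, namely Slc2a6, Hk1, Pfkm, Aldoa and Ankrd37. Pfkl, Aldoc, Eno2 and Higd1a had neither. Slc2a1, Slc2a3, Pgk1, Hif1a, Epas1 and Mxi1 had a peak of each factor within 1 kb of the start.

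**Figure D5:**
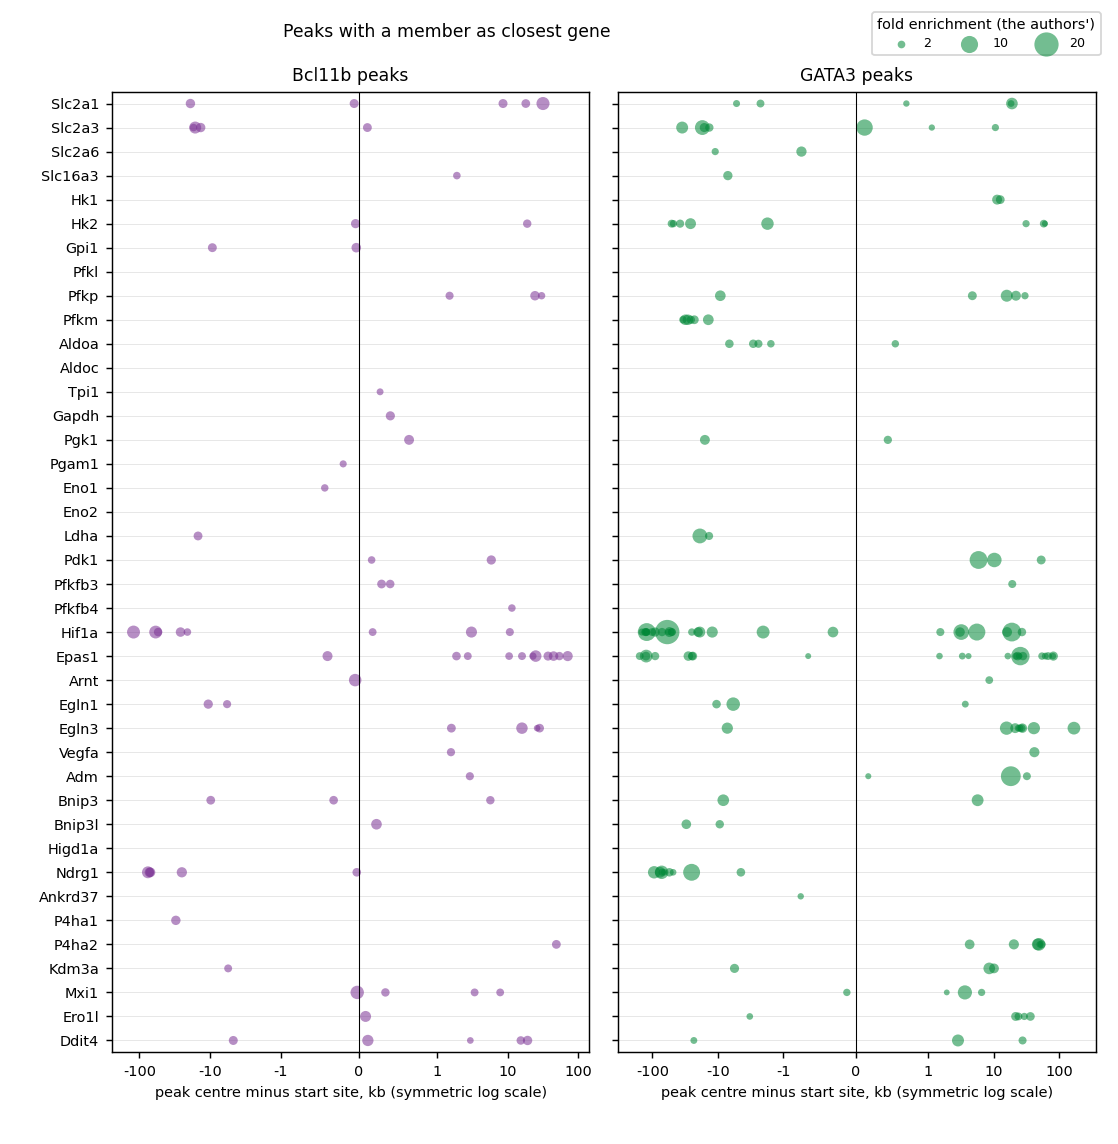
Position of each Bcl11b and GATA3 peak whose closest gene is one of the 40, as peak centre minus transcription start in kb on a symmetric log axis, with negative values upstream. Dot area follows the authors' fold enrichment. Hif1a and Epas1 carry the most peaks, and Pfkl, Aldoc, Eno2 and Higd1a carry none.

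Hif1a, on chr12:73901324-73947554, had 8 Bcl11b and 27 GATA3 peaks. The strongest GATA3 peak of the set by the authors' fold enrichment, which is their own value per peak, was at chr12:73841679-73842965, 59001 bases upstream of the Hif1a start, with a fold of 20.21 and 244 tags. A Bcl11b peak covered the same stretch (chr12:73841407-73843212, fold 5.61). Epas1, on chr17:86753864-86833410, had 11 Bcl11b and 22 GATA3 peaks, with GATA3 fold up to 11.62 at chr17:86778907-86779784 inside the gene. At Slc2a3 a GATA3 peak (chr6:122742073-122743172, fold 9.11, 124 tags) lay 122 bases from the listed start, over a Bcl11b peak (chr6:122742118-122743153, fold 2.68). Pdk1 had GATA3 peaks of fold 10.86 and 7.18 inside the gene and a Bcl11b peak of fold 1.96 over its promoter, the sequence of which is printed above. Adm had a GATA3 peak of fold 13.37 at chr7:110645297-110646494, 18227 bases downstream. Mxi1 had the highest Bcl11b fold of the set, 6.12, at its start (chr19:53309948-53311022). Slc2a6, on chr2:27021363-27028000, had no Bcl11b peak and a GATA3 peak of fold 3.6 that lay 747 bases upstream (chr2:27028447-27029041). Among the 36 genes with a promoter entry, a Bcl11b peak overlapped the 250 bases before the entry's start in 15, Pdk1 and Ero1l among them. A GATA3 peak did so in Adm and Mxi1. The share over all promoters is not given here. The entry's start can differ from the listed start of the gene, as for Hif1a. A GATA3 peak (chr12:73900251-73901771, fold 3.89) lay across the listed Hif1a start.

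Calls were set beside binding as counts. Of all genes tested, 11% were called higher and 10.1% lower in early Bcl11b KO cells. In Gata3 KO cells these shares were 14% and 16.8% in early and 8.44% and 5.59% in late cells. The shares among all genes with and without a peak are not given here, so the counts do not show whether calls go with binding. In early Bcl11b KO cells 1 of the 30 genes with a Bcl11b peak rose and 23 fell, with a median of -1.35, and of the 8 genes without a peak 1 rose and 6 fell, with a median of -1.32. With a Bcl11b peak within 1 kb of the start 1 of 20 genes rose and 14 fell, with a median of -1.0, and of the other 18 genes 1 rose and 15 fell, with a median of -1.47. In early Gata3 KO cells 1 of the 28 genes with a GATA3 peak rose and 9 fell, and none of the 10 without a peak was called. The medians were -0.34 with and -0.28 without a peak. In late Gata3 KO cells 5 of the 28 rose and 1 fell, and 1 of the 10 rose.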

How the data were processed

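RNA-seq was done on 16 libraries (8 groups of 2) and chromatin immunoprecipitation on 3. The members and lists were chosen with earlier results of these data known. The authors' tables, as deposited, give whole read counts for each RefSeq transcript and RPKM values relative to a larger library total. Per the submitters' processing notes the build was mm10 and the tools included MACS 1.4.2, Novoalign, Bowtie, TopHat2 2.0.13 and CASAVA 2.18, with no roles given, and strand and multi-mapped reads are not stated. Total RNA (10 ng) was amplified before sequencing, per the labels. In the deposited peak lists, per the file headers, each peak has its tag count, its fold over background, a p-value score and a false discovery rate in percent, of which the score and the rate were not used.

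Each gene was followed through its transcript with the most reads. Genes with RPKM of 1 or more in at least 2 of 8 libraries were tested, separately in each experiment, with edgeR 4.0.16 (TMM, quasi-likelihood, 4 groups, Benjamini-Hochberg over all genes, threshold 0.05) in R 4.3.3. SE is the fold change over the square root of F. Alternatives were DESeq2 1.42.0, limma 3.58.1 on log2(RPKM + 1) and log2(RPKM + 0.1), no filter, background subtraction, a replicate block, other sets of libraries, and each library left out. The test was checked on simulated counts. Intervals of read ratios cover counting error only. Peaks overlapping input peaks were left out (2197 of Bcl11b, 1413 of GATA3). Library values are given for the called gene with the smallest p and that with the largest change in each role group and comparison, and for Slc2a1, Slc2a3, Hk2, Ldha, Pgk1, Pdk1, Hif1a, Gapdh and Pgam1; further genes serve as comparison. Genes outside the set are up to 4 called per list with the smallest p, plus the deleted genes. Tables and figures used Python 3.11.15, pandas 2.3.3, scipy 1.17.1 and matplotlib 3.10.9.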

Additional observations from a re-analysis of the deposited data

Results flagged for a closer look

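The KO effect differed between late and early cells by the test of the difference itself (edgeR quasi-likelihood, adjusted over all genes) in 8 genes of each experiment, always with the higher value in late cells. After loss of Bcl11b the differences on the log2 scale were 4.29 for Slc2a3, 2.77 for Aldoc, 2.13 for Ero1l, 1.64 for Mxi1, 1.61 for P4ha1, 1.505 for Ndrg1 and 1.07 for Bnip3l. For Adm the fitted difference was 8.74, which depends on the prior count, since late cells had 8 reads over the KO and 1 read over the WT libraries. Each of these values uses both early WT libraries, whose share of gene reads was low, and the part of that trait was not tested. After loss of Gata3 they were 2.70 for Ndrg1, 2.66 for Mxi1, 1.79 for Hk2, 1.70 for Egln3, 1.56 for Ddit4, 1.15 for Hif1a, 0.84 for Pgam1 and 0.62 for Arnt. The late and early Gata3 WT libraries of the same number differed by less than replicates did, and the part of that likeness was not tested.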

How the results depend on the processing

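The early Bcl11b comparison depended on the scale. With limma on log2(RPKM + 1) and log2(RPKM + 0.1), 14 genes were called under each, 4 higher and 10 lower, against 31 with edgeR. Of all 10873 genes 6553 and 6598 were called higher on these scales, and 336 and 362 lower. These estimates turned positive, given for + 1 and then + 0.1: Eno1 0.77 and 0.78, Gapdh 0.12 and 0.12, Gpi1 0.26 and 0.26, Hif1a 0.34 and 0.35, Hk1 0.19 and 0.20, Hk2 0.86 and 0.92, Ldha 0.61 and 0.61, Pgam1 0.17 and 0.17, Slc16a3 0.092 and 0.096, Tpi1 0.22 and 0.22. In late over early Bcl11b WT cells the estimates that turned were Bnip3 0.018 and 0.018, Ddit4 0.41 and 0.42, Egln3 0.61 and 0.62, Ero1l 0.26 and 0.26, Hk2 0.67 and 0.72, Kdm3a 0.58 and 0.64, Mxi1 1.15 and 1.33, P4ha1 0.050 and 0.057, Pfkl 0.95 and 1.07, Slc2a1 1.12 and 1.15, and Slc2a6 0.74 and 1.61, the last also without early WT replicate 2 (1.72). In the Bcl11b stage difference they were Bnip3l -0.26 and -0.28, Eno1 -1.29 and -1.31, Hif1a -0.77 and -0.78, Hk2 -1.19 and -1.28, Pgam1 -0.73 and -1.11, Tpi1 -1.20 and -1.22, and Gapdh -0.85 with + 0.1. The median over all genes moved with these scales, to 0.86 and 1.14 in the early comparison, 1.04 and 1.43 in late over early WT cells, and -1.04 and -1.33 in the stage difference. Counts of genes called moved as follows, and beyond the tools' construction the cause was not tested. The late Bcl11b count of 2 became 10 with DESeq2, 1 without the filter, 0 with limma on log2(RPKM + 0.1), 1 after background subtraction, 14 with only the 4 libraries compared and 6 with all 16. Over all genes 241 became 587, 146, 89, 151, 1584 and 704 in the same order. The Bcl11b stage difference, 8, became 14 with DESeq2, 4 without the filter and 13 with limma on log2(RPKM + 0.1). Over all genes 352 became 902, 529 and 5846. Without the filter the Gata3 counts were 21 (early), 16 (late), 25 (late over early KO) and 24 (stage difference), and DESeq2 gave 13 for the last. Over all 16268 genes the counts without the filter were 4169, 2269, 3442 and 2076, and DESeq2 gave 1341 of 10601. Leaving out 1 library gave 26 to 33 genes in early and 0 to 5 in late Bcl11b cells, 19 to 28 for late over early KO, 28 to 32 for late over early WT and 3 to 11 for the stage difference. In the Gata3 experiment the ranges were 5 to 12 in early and 4 to 10 in late cells, 8 to 16 for late over early KO, 0 to 0 for late over early WT and 5 to 13 for the stage difference. The labels do not tie replicate numbers to animals or days, so the samples were not treated as paired. A replicate block gave 24 (early), 22 (late), 27 (late over early KO) and 25 (stage difference) in the Gata3 experiment and 5 for the Bcl11b stage difference. Over all genes it called 4226, 2510, 3701 and 2387 of 10601, and 206 of 10873. Same-numbered libraries deviated together with correlations of 0.173 to 0.605 in the Gata3 and -0.080 to 0.344 in the Bcl11b experiment. With a fold enrichment of at least 10, 0 genes had a Bcl11b and 4 a GATA3 peak, and within 5 kb of the start 17 had a GATA3 peak. With 2 libraries a group, small differences may go uncalled, above all in the Bcl11b experiment, where replicates spread more.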

Other observations

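Within the Gata3 experiment the set differed between the libraries numbered 1 and 2. In 24 of the 38 genes tested the level was higher in library 1 in all 4 groups, against 14.4% of all 10601 genes. Slc2a3, Aldoc, Bnip3, Ndrg1, P4ha2 and Ero1l were at least 1.2 times higher each time, against 2.14% of all genes, and Slc2a3, Aldoc and P4ha2 at least 1.5 times, against 0.396%. The median log2 ratio over the 38 genes was 0.33 in late KO, 0.30 in late WT, 0.20 in early KO and 0.38 in early WT cells. In the Bcl11b experiment 0 of 38 genes were higher in library 1 in all 4 groups, against 7.25% of all genes. The labels do not say what the numbers stand for.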
